A study of Mus musculus with 6 samples.

Results

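The cells described here were telocytes of the cecum and large intestine, taken from droplet-based single-cell RNA libraries of sorted reporter-positive lamina propria cells. A cell counted as a telocyte when it held at least 2 UMIs (unique molecular identifiers, each standing for 1 captured transcript) of Pdgfra, a UMI of at least 3 of the 8 genes Foxl1, F3, Sox6, Procr, Agt, Nrg1, Wnt5a and Bmp7, and no UMI of Pi16, Prox1, Ptprc or Myh11. These 8 genes are called the telocyte genes below. The gate found 3877 telocytes, 1307 of them in the cecum and 2570 from the large intestine, among 25702 cells kept in these libraries and 102534 kept in all 6. Cells that met the same demands on Pdgfra and the 4 excluded genes but held at most 2 telocyte genes are called other Pdgfra-positive cells, and there were 8717 of them in cecum and large intestine together. The same gate applied to the small intestine found 1916 telocytes and 34900 other Pdgfra-positive cells. Telocyte here names every cell that passed the gate, and some of these cells lacked high Pdgfra. Sub-clusters 2, 3 and 7, described below (639, 625 and 176 cells), held less Pdgfra than the other Pdgfra-positive cells. In sub-cluster 6 (409 cells) 55.5% of cells were marked as doublets.

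Telocytes are thin mesenchymal cells with long processes that lie directly under the intestinal epithelium. They secrete WNT and BMP ligands to the epithelial cells above them, and the winged-helix factor Foxl1 and high Pdgfra are their usual marks. WNT signals keep crypt stem cells dividing, BMP signals move epithelial cells toward differentiation on the upper crypt, the surface and the villus, and trophocytes, a neighbouring fibroblast type under the crypt, make the BMP antagonist Gremlin 1 and R-spondins. The large bowel has no villi, so its telocytes lie along crypts and the flat surface.

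All 6 libraries came from Flare-TSLP mice on the C57BL/6 background, in which a cassette with the red fluorescent protein tdTomato was placed in the locus of the cytokine gene Tslp, and from live tdTomato+ lamina propria cells. There were 2 libraries of proximal small intestine (jejunum), 2 of distal small intestine, 1 of cecum and 1 of large intestine, with no treatment and no reporter-negative group, and the labels gave no age. Each library held 3 cell hashtags, which the study used to pool samples. Its sources used here do not say which animal each hashtag stands for, and cells were not split by hashtag here, so a library was taken as 1 sample and p-values measure the spread between libraries only. The sort was gated on the reporter protein, and no reporter-negative cells were sorted for comparison in these libraries.

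The libraries held 11751 to 21299 kept cells, with median UMIs per telocyte of 7922 in the cecum, 9677 in the large intestine and 9450 to 13869.5 in the small intestine. Both large bowel libraries and the small intestinal replicates 1 carried 1 set of hashtags and the small intestinal replicates 2 the other, and 44 cell barcodes (0.315% of the cecum's) were shared by the cecum and large intestine. A doublet caller marked 14% of cecum and 5.72% of large intestine telocytes, against 10.8% to 28.3% in the small intestine. Over all kept cells it marked fewer, 6.27% in the cecum, 4.91% in the large intestine and 7.29% to 11.4% in the small intestinal libraries. Values given in CPM are UMIs scaled to 1000000 UMIs after summing all cells of a class within 1 library, and fewer cells of a type with a high level cannot be told apart from a lower level in each cell. The epithelial marker sum was 3.09 CPM in cecum and 23.6 CPM in large intestine telocytes, against 2.24 and 65.9 CPM in the other Pdgfra-positive cells. The immune marker sum was 79.1 and 45.6 CPM and the lymphatic sum 9.36 and 15.6 CPM in telocytes, with Prox1 and Ptprc at 0 by the gate.

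The genes of the gate chose these cells, so their levels are a description without a test. Pdgfra stood at 778 CPM in cecum and 945 CPM in large intestine telocytes, against 635 and 621 CPM in the other Pdgfra-positive cells. Foxl1 was at 42.1 and 48.9 CPM, against 0.680 and 2.39 CPM, and at 17.3 to 20.9 CPM in the small intestinal telocytes. A Foxl1 UMI was seen in 349 cecum telocytes (26.7%) and 878 large intestine telocytes (34.2%), against 1.97% and 1.67% of lymphatic endothelial cells, which should lack it and had median UMIs of 4762 and 7557. Most cells of the gate thus entered it without a Foxl1 UMI. Nrg1, the ErbB ligand neuregulin 1, was the highest of the 8 genes, at 1745 CPM in cecum and 1437 CPM in large intestine telocytes, against 58.5 and 71.8 CPM in the other cells. Sox6, an SRY-box factor, stood at 335 and 962 CPM, Procr, the endothelial protein C receptor, at 212 and 338 CPM, and F3, tissue factor, at 104 and 233 CPM. Agt, the angiotensin precursor, was at 339 and 214 CPM. The ligand genes Wnt5a and Bmp7 stood at 261 and 303 CPM and at 77.0 and 148 CPM.

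How sharply the gate divided the cells differed between the regions. In the large intestine the number of telocyte genes per Pdgfra-positive cell had a peak at 1 gene (23.0% of cells), a low at 4 genes (6.76%) and a further rise to 6 genes (9.19%). In the cecum the shares fell at each added gene, from 40.6% of cells with none to 5.99% with 3 and 0.601% with all 8. Exactly 3 of the 8 genes were held by 32.1% of cecum and 19.1% of large intestine telocytes, against 61.5% to 68.3% in the 4 small intestinal libraries. At least 6 were held by 381 cecum (29.2%) and 1210 large intestine telocytes (47.1%), against 2.41% to 13.7% in the small intestine. Cells on the 2 sides of the gate's edge differed by degrees. In the cecum Foxl1 was at 2.55 CPM in cells with 2 telocyte genes and 11.8 CPM in cells with 3, and Ednrb, which the gate did not use, was at 9.0 and 39.9 CPM. In the large intestine the same step took Foxl1 from 5.86 to 11.6 CPM and Ednrb from 7.24 to 23.7 CPM. Pdgfra went the other way over this step, from 596 to 491 CPM in the cecum and from 576 to 527 CPM in the large intestine, and cecum Adamdec1 went from 6619 to 9552 CPM.

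**Figure D1:**
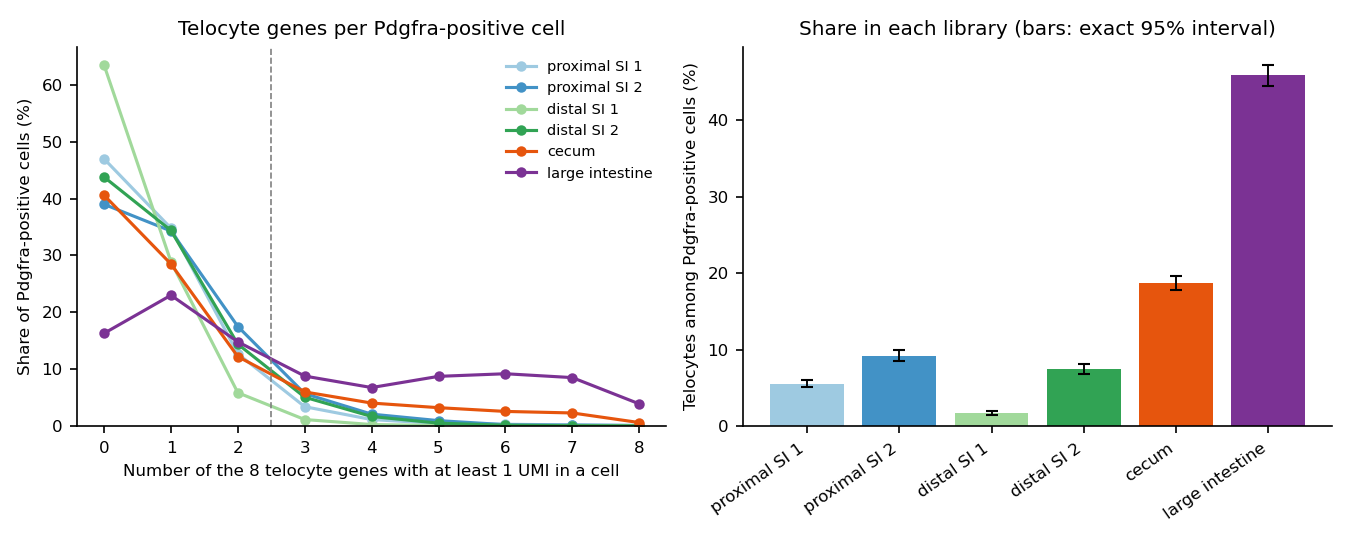
Left, the share of Pdgfra-positive cells (y axis, percent) by the number of the 8 telocyte genes with at least 1 UMI (x axis), 1 line per library, with the gate at the dashed line; right, the telocyte share of Pdgfra-positive cells per library, with exact 95% binomial intervals. The large intestine line has a further rise at 6 genes (9.19%), and the bars reach 18.7% for cecum and 45.9% for large intestine against 1.69% to 9.19% in the small intestine.

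Telocytes made up 18.7% of the Pdgfra-positive cells of the cecum (95% interval by the exact binomial method 17.8% to 19.6%), and in the large intestine the share was 45.9% (44.5% to 47.2%). In the small intestine the shares were 5.52% and 9.19% in the proximal and 1.69% and 7.41% in the distal libraries. Both large bowel libraries lay above all 4 small intestinal libraries, with means of 32.3% ± 19.2 (SD, n = 2) and 5.95% ± 3.21 (SD, n = 4). The difference of 26.3 percentage points had an exact permutation p of 0.133, two-sided, which is the smallest p that 2 libraries against 4 can give, so the design cannot reach 0.05. Thinning every cell to 2500 UMIs before the gate gave 13.9% and 51.1% against 0.791% to 2.74%. The intervals cover counting error only. The share counts cells that passed the gate, so it rests on the same telocyte genes that chose them. Each of these genes was higher in the gated cells of the large bowel than in those of the small intestine. By the means, the differences ran from 2.01-fold (Wnt5a) to 5.46-fold (Bmp7). Whether the higher share came from more such cells or from higher levels of these genes in each cell was not tested. The shares were known when these cells were taken up.

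Outside the gate genes, 280 of 7925 genes with enough UMIs (3.53%) were more than 2-fold higher in telocytes than in the other Pdgfra-positive cells in both the cecum and the large intestine, and 233 (2.94%) were more than 2-fold lower, with 5 CPM added to both sides of each ratio. The gate defined the 2 classes, so these ratios are descriptions and no test was made. Over all these genes the median log2 ratio was 0.09 (cecum) and 0.05 (large intestine). The leading gene was Ednrb, the endothelin B receptor, at 344 CPM in cecum telocytes against 6.12 CPM in the other cells and at 221 against 6.69 CPM in the large intestine. Ednrb UMIs were seen in 44.8% and 49.5% of telocytes, but lymphatic endothelial cells held it too, at 18.7% and 17.9%. Ptprr, a receptor-type tyrosine phosphatase, stood at 308 against 7.50 CPM in the cecum and 183 against 5.09 CPM in the large intestine, with a UMI in 58.7% and 35.6% of telocytes and in 1.97% and 1.67% of lymphatic cells. Kctd8, an auxiliary subunit of GABA-B receptors, was at 428 against 8.74 CPM and 127 against 2.80 CPM. Il1rl1, which encodes the receptor of the alarmin IL-33, was at 191 against 0.932 CPM in the cecum and 77.3 against 1.54 CPM in the large intestine, in 24.9% and 11.2% of telocytes and at most 0.833% of lymphatic cells of either library. The other genes among the 20 farthest apart were Cacna2d3, Cpa6, Emid1, Ptpre, Nrg2, Plau, Iqcj, Col6a4, Bean1, Tmem158, Bmp2, Cdhr17, Cntnap5a, Tbx3, Inhba and Cxcl13, and the ratios of all 20 ran from 6.88 to 33.0 over both libraries.

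**Figure D2:**
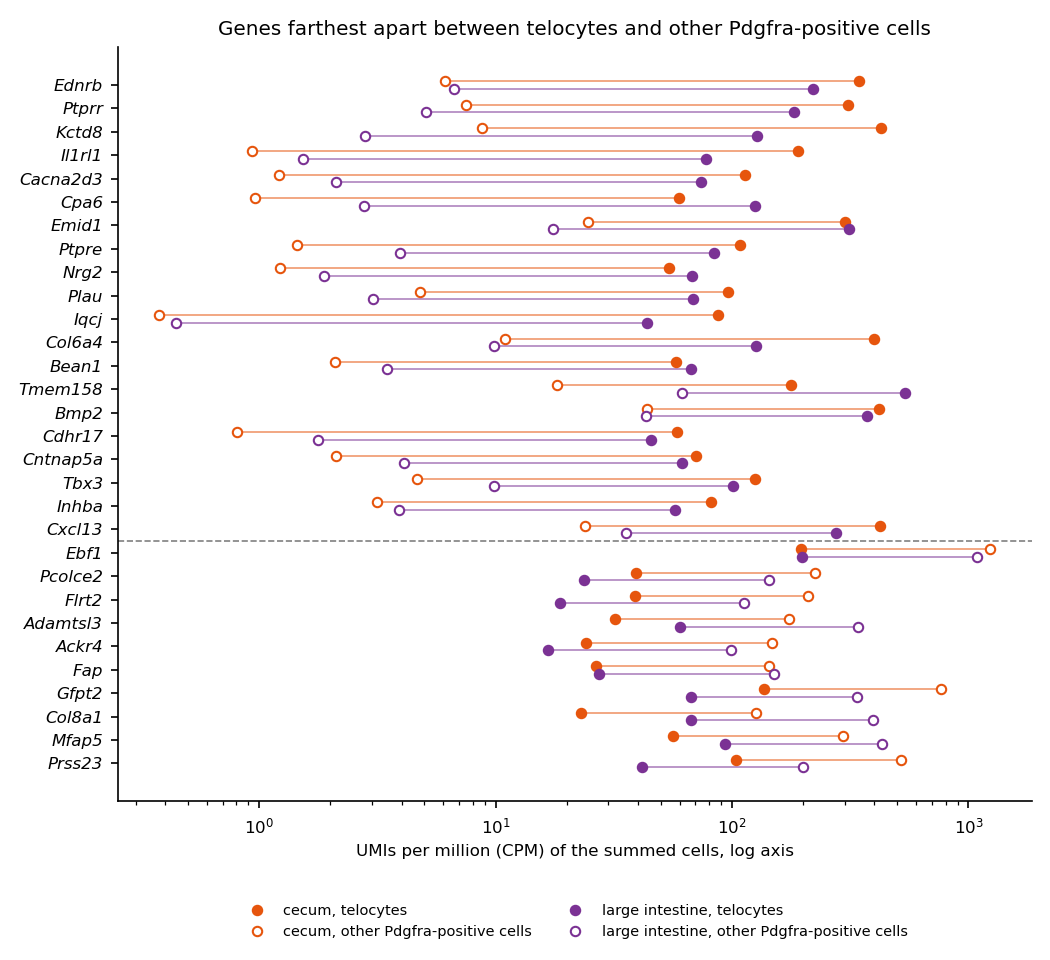
Level (CPM of the summed cells, log axis) of the 20 genes farthest above and, below the dashed line, the 10 farthest under the other Pdgfra-positive cells; filled points are telocytes, open points the other cells, with the cecum in orange and the large intestine in purple. Ednrb stands at 344 and 221 CPM in telocytes against 6.12 and 6.69 CPM, and Ebf1 at 196 and 198 CPM against 1239 and 1092 CPM.

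Among the BMP ligands, 3 of the 7 described were higher in telocytes and 1 was lower, against 3.53% and 2.94% of all genes described. Bmp5 was at 858 against 117 CPM in the cecum and 1243 against 183 CPM in the large intestine, and a Bmp5 UMI was seen in 92.3% and 95.6% of telocytes, against 3.94% and 10.8% of lymphatic cells. Bmp2 stood at 417 against 43.8 CPM and 372 against 43.4 CPM, and Bmp3, a ligand that can oppose other BMPs, at 10.8 against 0.705 CPM and 88.0 against 4.17 CPM. Gdf10, also known as Bmp3b, was the lower ligand, at 4.38 against 18.7 CPM and 13.2 against 74.5 CPM. Bmp4 was at 581 against 301 CPM and 680 against 382 CPM, short of 2-fold. Of the 9 BMP antagonists described, Fst (follistatin) and Twsg1 were higher and Grem1 was lower, with Fst at 317 against 7.48 CPM in the cecum and 50.2 against 5.98 CPM in the large intestine. Grem1 was at 21.4 against 75.6 CPM and 55.8 against 308 CPM. Of 11 BMP receptors and targets, Smad6 and Id1, both known targets of BMP signals, were higher and none was lower, with Id1 at 501 against 53.4 CPM and 321 against 53.5 CPM.

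Both WNT ligands past 2-fold, of 3 described, were higher in telocytes. For this and the lists that follow, 3.53% of all genes described were higher and 2.94% lower. Wnt4 was at 552 against 150 CPM in the cecum and 337 against 74.0 CPM in the large intestine, and Wnt5b at 213 against 48.4 CPM and 162 against 78.4 CPM. Rspo3, a R-spondin that strengthens WNT signals at the crypt base, was lower, at 10.5 against 37.5 CPM and 9.95 against 44.1 CPM. The ErbB ligands Ereg (epiregulin) and Nrg2, the 2 of that list described, were both higher, and Ereg was at 698 against 101 CPM and 366 against 94.6 CPM. Of 11 genes of the hedgehog response, Ptch1, Foxf1 and Foxf2 were higher and Boc and Gas1 lower. Ptch1, the hedgehog receptor, was at 722 against 235 CPM and 539 against 243 CPM, while Gli1, a target of the same pathway, was at 26.5 against 24.9 CPM and 21.7 against 23.5 CPM. Among transcription factors of gut mesenchyme, Foxf1, Foxf2, Tbx2 and Tbx3 were higher and Meis1, Meis2 and Prrx1 lower, of 11 described. Tbx3 stood at 125 against 4.66 CPM in the cecum and 101 against 9.84 CPM in the large intestine.

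Of 8 coagulation and vasoactive genes, 5 were higher in telocytes and none was lower: Ednrb, Ednra, Ece1, Ptgs1 and Ptgs2. For this and the next lists, 3.53% of all genes described were higher and 2.94% lower. Ednra, the endothelin A receptor, was at 159 against 36.7 CPM and 319 against 95.9 CPM, and Ptgs1 and Ptgs2 encode the cyclooxygenases of prostaglandin synthesis. Ptgs1 stood at 267 against 38.7 CPM and 220 against 40.8 CPM. Of 18 basement membrane genes 5 were higher and 2 lower, and Npnt (nephronectin) was at 113 against 1.49 CPM in the cecum and 12 against 0.171 CPM in the large intestine. No fibrillar collagen or interstitial matrix gene of 15 was higher and 5 were lower, among them Dcn (decorin), at 3157 against 6905 CPM and 3338 against 9140 CPM. Of 15 alarmins, cytokines and chemokines, Cxcl13, a B-cell chemoattractant, and Cxcl14 were higher and Il33, Il6, Ccl7 and Ccl11 lower. Cxcl13 was at 422 against 24.0 CPM and 274 against 35.6 CPM.

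The genes farthest below the other Pdgfra-positive cells were Ebf1, Pcolce2, Flrt2, Adamtsl3, Ackr4, Fap, Gfpt2, Col8a1, Mfap5 and Prss23. Ebf1, a transcription factor of fibroblasts and B cells, was at 196 against 1239 CPM in the cecum and 198 against 1092 CPM in the large intestine. All 4 of the trophocyte markers described, Cd81, Ackr4, Grem1 and Cd34, were more than 2-fold lower in both libraries, against 2.94% of all genes described. Ackr4, an atypical chemokine receptor, was at 24.1 against 148 CPM and 16.6 against 98.7 CPM. The 6 most abundant telocyte genes outside mitochondrial and ribosomal ones were Malat1, Col3a1, Adamdec1, Tpt1, Sparc and Fth1, and Adamdec1, a metalloprotease-like protein of lamina propria fibroblasts, was at 9534 against 3999 CPM in the cecum and 5842 against 4009 CPM in the large intestine.

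Promoters were looked at because Foxl1, a usual mark of telocytes, is a forkhead factor. The RefSeq promoter table (build GRCm38.p6, 250 bases before to 50 after each start) held 12 of the 20 leading genes, fewer than 80%, so no share over the leading genes is given. The forkhead core TGTTTAC, searched on both strands, is in 3.65% of all 32851 promoters of this length, and Il1rl1 and Ptprr held it. The GLI site GACCACCCA, searched the same way for the hedgehog response, is in 0.253% of all promoters and in none of the 12 genes. In the 30-base stretches here, capitals mark the forkhead letters, which in Il1rl1 (chr1:40439501-40439530, plus strand) read on the reverse strand and in Ptprr (chr10:116177249-116177278, plus strand) on the strand shown. A match of letters is not a binding site.
Il1rl1: tggacattatgGTAAACAgcattgtttatc
Ptprr: acctcgaggctTGTTTACtaaaccatcgcg

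Clustered on their own, the 3877 telocytes fell into 9 sub-clusters, described by their leading genes and with no test, since clustering used the same genes. They stay numbered, since their names would rest on genes of the gate. Sub-cluster 1 (720 cells, 399 of them from the cecum) was led by Spp1, Dmp1, Nalf1 and Fst and held the highest Nrg1 (5442 CPM), Ednrb (804 CPM), Ptprr (897 CPM), Kctd8 (965 CPM) and Bmp2 (1071 CPM). Lgr5, a marker of villus tip telocytes in the small intestine, was at 66.3 CPM there and at most 2.17 CPM in the other 8, but few cells carried it: Lgr5 UMIs were seen in 34 cecum and 43 large intestine telocytes, with up to 50 in 1 cell. Sub-clusters 4 (578 cells) and 5 (507 cells), mostly of the large intestine, each held a median of 6 telocyte genes. Sub-cluster 4 was led by Iqcj and Mt3, with Foxl1 at 81.1 CPM, Sox6 at 1664 CPM and Ednrb at 623 CPM. Sub-cluster 5 was led by Wif1, a secreted WNT inhibitor, and Bmp3, with Sox6 at 2951 CPM, Procr at 972 CPM and Acta2, smooth muscle actin, at 2278 CPM, but Nrg1 at 140 CPM and Ptprr at 3.06 CPM. Wif1 stood at 135 CPM and Bmp3 at 336 CPM in sub-cluster 5.

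Sub-clusters 2 (639 cells, 528 from the cecum) and 3 (625 cells, 612 from the large intestine) held medians of 3 and 4 telocyte genes. Their Pdgfra, at 356 and 472 CPM, and that of sub-cluster 7, at 451 CPM, lay below the 635 and 621 CPM of the other Pdgfra-positive cells, while sub-clusters 1, 4 and 5 were at 1458 to 1501 CPM. Sub-cluster 2 was led by Igkc, an immunoglobulin chain made by plasma cells, at 1102 CPM, and by Lrp1b and Wfdc13, with Adamdec1 at 12368 CPM and Foxl1 at 25.9 CPM. Sub-cluster 3 was led by Tafa1, Spock3 and Clu, with Foxl1 at 17.6 CPM and the chemokine Ccl8 at 174 CPM. Sub-cluster 6 (409 cells) was led by Grm7, Ebf1, Plcb4 and Ptn, with the trophocyte genes Grem1 at 219 CPM and Ackr4 at 110 CPM, a median of 3 telocyte genes and 55.5% of its cells marked as doublets. Sub-cluster 7 (176 cells) was led by Kcnma1, Rgs5, a pericyte gene, and Myocd, a smooth muscle coactivator, with 17.0% marked. In sub-cluster 8 (163 cells) the immediate early gene Fos was at 4621 CPM. Sub-cluster 9 (60 cells) was led by the cell-cycle genes Top2a (1093 CPM) and Prc1, with Mki67 at 442 CPM. Because sub-clusters 3 and 5 were almost wholly of 1 library, region and library cannot be told apart in them.

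**Figure D3:**
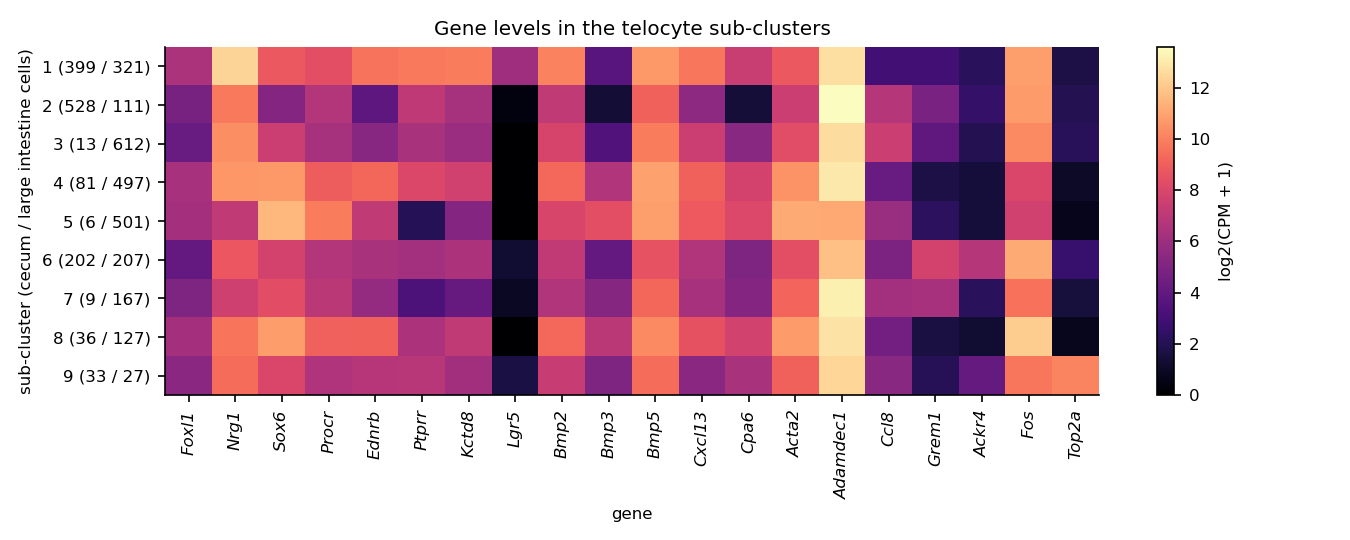
Levels, as log2(CPM + 1) by colour, of 20 genes (x axis) in the 9 telocyte sub-clusters (y axis, with the number of cecum and large intestine cells). Sub-cluster 1 has the highest Nrg1 (5442 CPM) and Ednrb (804 CPM), sub-cluster 5 the highest Bmp3 (336 CPM), sub-cluster 6 the highest Grem1 (219 CPM) and sub-cluster 9 the highest Top2a (1093 CPM).

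The telocytes of the large bowel were next compared with the cells that the same gate found in the small intestine, which asks how telocytes differ along the gut. With UMIs summed per library, edgeR's quasi-likelihood test called 4819 of 14708 genes (32.8%) at a Benjamini-Hochberg adjusted p under 0.05, 2620 higher in the large bowel (17.8%) and 2199 lower (15.0%). Both large bowel libraries carried the same hashtag set, and the count was 2754 with the set as a covariate, 1745 among the libraries of that set alone and 2765 to 5552 leaving out 1 library, lowest without the cecum. For 7723 genes (52.5%) the 2 large bowel libraries did not overlap the 4 small intestinal ones. The makeup of the gate differed between the bowels, as described. Restricted to cells with at least 6 telocyte genes, which left 859 calls of 8317 genes, 35 of the 63 genes followed across alternatives in this comparison that could be tested there kept their call. Of the others 27 lost the call and Bmp5 turned direction, and the genes described with values below are marked where this happened. The part of the gate's makeup in these differences was not tested beyond these values.

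Positional genes set the bowels apart. Of 28 Hox genes tested, 10 were higher in the large bowel (Hoxa9, Hoxa10, Hoxa11, Hoxc10, Hoxd3, Hoxd4, Hoxd8, Hoxd9, Hoxd10 and Hoxd11) and 10 lower (Hoxa2, Hoxa4, Hoxb2 to Hoxb8 and Hoxc4). Over all genes 17.8% were higher and 15.0% lower. Hox genes set position along the body axis, with higher numbers expressed farther toward the tail. Hoxa10 was at 80.8 CPM in cecum and 86.5 CPM in large intestine telocytes, and no UMI was seen in the 4 small intestinal libraries, so its level was at least 695-fold higher against a floor of 3 UMIs over the group (0.122 CPM). By the same bound Hoxd11, at 58.6 and 42.4 CPM, was at least 387-fold higher and Hoxa11, at 14.7 and 24.5 CPM, at least 177-fold higher. The antisense transcript Hoxa11os, at 17.2 and 70.8 CPM, was at least 449-fold higher, and whether its counting used strand is not given in the sources used here. Hoxd10 had 1 UMI in the small intestine, at a ratio of 437 (95% counting interval 78.1 to 17272). Hoxa9 was at 70.3 and 37.9 CPM against 0 to 0.605 CPM, and Hoxd9 at 59.3 and 12.3 CPM against 0 to 0.908 CPM. Hoxc10 was at 43.9 and 7.35 CPM and was seen in only 1 small intestinal library, the distal replicate 2, at 1.51 CPM, and its call was lost in cells with at least 6 telocyte genes (log2 change 3.28), with limma-voom (6.56) and with DESeq2 (6.17).

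Hoxb3 went the other way, at 71.9, 101, 52.2 and 79.4 CPM in the small intestine against 1.12 CPM (cecum) and 3.95 CPM (large intestine) (log2 change -4.67 ± 0.45 (SE), edgeR adjusted p = 0.000757). Hoxb4 was at 41.2 to 47.6 CPM against 1.46 and 3.00 CPM, and Hoxb7 at 11.4 to 20.1 CPM against 0.0859 and 0.805 CPM. Hoxc8 did not pass the test (adjusted p = 0.0783). It stood at 15.1 and 8.67 CPM in the proximal and 125 and 123 CPM in the distal small intestine, then at 10.8 CPM for the cecum and 1.72 CPM for the large intestine. Pitx1, a homeobox gene of hindlimb and hindgut, was at 272 and 231 CPM against 1.05 to 6.43 CPM (log2 change 6.47 ± 0.40, adjusted p = 0.000178). Meis1, a partner of Hox proteins, was at 138 and 135 CPM against 408 to 514 CPM (log2 change -1.70 ± 0.15, adjusted p = 0.000487).

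**Figure D4:**
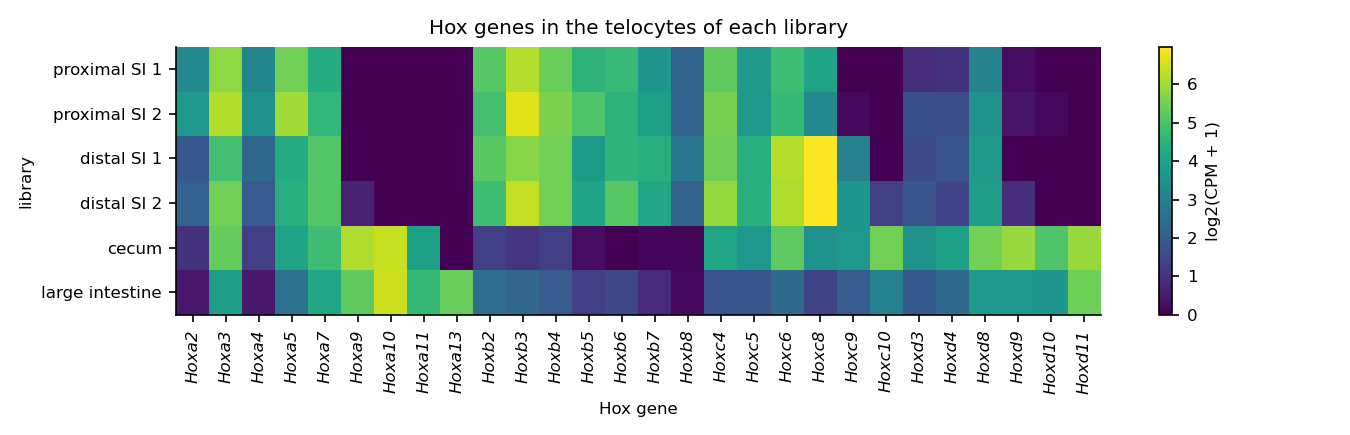
Levels, as log2(CPM + 1) by colour, of 28 Hox genes that reach 5 CPM in a library (x axis) in the telocytes of the 6 libraries (y axis; SI is small intestine). Hoxa9 to Hoxa11 and Hoxd10 and Hoxd11 are dark in the small intestine and bright in the cecum and large intestine, Hoxb2 to Hoxb8 the reverse, and Hoxa13 appears in the large intestine only (40.3 CPM).

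Among the BMP ligands 4 of 8 were higher in large bowel telocytes and 1 was lower. Bmp2 was at 119, 72.4, 125 and 54.9 CPM in the small intestine and at 417 and 372 CPM in the cecum and large intestine (log2 change 2.20 ± 0.31, edgeR adjusted p = 0.00266). Bmp3 was at 1.21 to 4.02 CPM against 10.8 and 88.0 CPM (4.42 ± 0.76, adjusted p = 0.00534), and this call did not hold with limma-voom or among the libraries of 1 hashtag set (3.89 in each). Bmp4, at 322 to 387 CPM against 581 and 680 CPM, had a log2 change of 0.89 ± 0.14 (adjusted p = 0.00382). Bmp5, at 455 to 597 CPM against 858 and 1243 CPM, had a log2 change of 1.12 ± 0.18 (adjusted p = 0.00452). In cells with at least 6 telocyte genes the log2 changes of Bmp2 and Bmp4 were 0.48 and 0.34, not called, and Bmp5 turned to -0.51. Bmp5 also lost its call with at least 4 telocyte genes (0.52) and with a Foxl1 UMI required (0.55). Gdf10 was the lower ligand (log2 change -1.31 ± 0.40, adjusted p = 0.0392), a call lost without the cecum, without either proximal library or the distal replicate 1 and with the hashtag set as a covariate (-1.50), and turned to 0.20 where a Foxl1 UMI was required. Of 12 antagonists 2 were higher, Nog and Fstl3, and 3 lower, Grem1 and Bmper among them, against 17.8% and 15.0% of all genes. Grem1 was at 160 to 301 CPM in the small intestine against 21.4 and 55.8 CPM (log2 change -2.56 ± 0.42, adjusted p = 0.00439). Of 14 BMP receptors and targets 2 were higher, Id1 and Id2, and 3 lower, Bmpr1b, Bmpr2 and Smad1, with a median log2 change of -0.21. These counts too stand against 17.8% and 15.0% of all genes. Id1 was at 67.5 to 168 CPM against 501 and 321 CPM (1.92 ± 0.34, adjusted p = 0.00591; 0.81 and not called in cells with at least 6 telocyte genes).

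The WNT genes divided. Of 7 ligands tested Wnt2, Wnt4, Wnt5b and Wnt6 were higher in the large bowel and Wnt2b lower, against 17.8% and 15.0% of all genes. Wnt5b was at 31.4, 30.6, 28.9 and 31 CPM in the small intestine and at 213 and 162 CPM in the cecum and large intestine, a 6.16-fold difference of means (log2 change 2.73 ± 0.13, edgeR adjusted p = 6.29e-05). Wnt4 was at 198 to 266 CPM against 552 and 337 CPM (1.04 ± 0.21, adjusted p = 0.00910), with no call in cells with at least 6 telocyte genes (0.85) or with a Foxl1 UMI required (0.62). Rspo3 was at 84.4, 77.5, 86.4 and 77.9 CPM against 10.5 and 9.95 CPM, 8.0-fold lower by the means (-2.89 ± 0.13, adjusted p = 6.29e-05). Rspo2 was lower as well, at 17.7 to 44.5 CPM against 5.50 and 2.12 CPM. Marker sums of other cells that make Rspo3 or Grem1 were lower too in the gated cells. The trophocyte sum, which holds Grem1 and Dkk2, was at 587 to 877 CPM in the small intestine against 234 and 248 CPM (3 of 5 markers lower, none higher). Of its other markers, Ackr4 and Cd34 were at 0.330 and 0.664 times the small intestinal mean and Cd81 at 1.29 times. The lymphatic sum was at 30.1 to 132 CPM against 9.36 and 15.6 CPM (4 of 5 lower, none higher). The part of these other cells in the values of Rspo3, Grem1 and Dkk2 was not tested. Dkk2, a secreted WNT inhibitor, was at 120 to 283 CPM against 11.5 and 2.89 CPM (-4.79 ± 0.66, adjusted p = 0.00253; -3.22 and not called in cells with at least 6 telocyte genes). Of 7 WNT targets Lef1 was higher, a call lost with limma-voom (5.00). Axin2, Nkd1, Nkd2, Znrf3 and Apcdd1 were lower, against the same shares of all genes. Apcdd1 was at 64.1 to 85.2 CPM against 8.59 and 5.96 CPM (-3.26 ± 0.23, adjusted p = 0.000270), with -1.98 and no call in cells with at least 6 telocyte genes. Axin2 was at 12.9 to 14.9 CPM against 6.87 and 6.11 CPM, a call lost with at least 4 telocyte genes or a required Foxl1 UMI.

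Of 5 ErbB ligands tested Areg and Ereg were higher and Btc (betacellulin) was lower, against 17.8% and 15.0% of all genes. Ereg was at 142, 129, 96.4 and 78.5 CPM in the small intestine against 698 and 366 CPM (log2 change 2.36 ± 0.29, edgeR adjusted p = 0.00183; 1.81 and not called in cells with at least 6 telocyte genes). Of 10 vasoactive genes 6 were higher and none lower, Edn3, Ednra, Adm, Ptgs1, Ptgs2 and Ptger4, against the same shares of all genes. The Ednra call was lost within 1 hashtag set (log2 change 1.22) and in cells with at least 6 telocyte genes (0.52). Without the large intestine its log2 change was 0.56. Ptgs2 was at 25.4 to 44.2 CPM against 157 and 140 CPM (2.13 ± 0.21, adjusted p = 0.000869), with 0.54 and no call in cells with at least 6 telocyte genes. Ednrb did not pass the test (1.14 ± 0.54, adjusted p = 0.135). It ranged from 43.0 to 240 CPM in the small intestine, a range that overlapped the 221 CPM of the large intestine. Ptprr, at 84.7 to 296 CPM in the small intestine, overlapped too (adjusted p = 0.409). Lgr5 was at 9.53 to 172 CPM in the small intestine and 10.2 CPM in both large bowel libraries (adjusted p = 0.0523).

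Of 19 basement membrane genes 5 were higher and 3 lower, and of 15 fibrillar and interstitial matrix genes 5 were higher and 2 lower, against 17.8% higher and 15.0% lower of all genes. Postn (periostin) was at 118, 79.0, 107 and 85.6 CPM in the small intestine and at 1622 and 1737 CPM in the cecum and large intestine, 17.2-fold by the means (log2 change 4.22 ± 0.19, edgeR adjusted p = 6.29e-05). In the other Pdgfra-positive cells it was at 1314 and 1468 CPM against 204 to 286 CPM. Col14a1 was at 1069 to 1339 CPM against 247 and 131 CPM (-2.57 ± 0.28, adjusted p = 0.00136; -1.32 and not called in cells with at least 6 telocyte genes). Ogn was at 120 to 264 CPM against 640 and 1888 CPM (2.94 ± 0.43, adjusted p = 0.00322). Of 14 proteases and inhibitors 5 were higher and Mmp10 alone was lower. Mmp10 (stromelysin-2) was at 1335, 1525, 1118 and 1477 CPM in the small intestine and at 7.04 and 53.6 CPM in the large bowel, 45.0-fold lower by the means (-5.36 ± 0.77, adjusted p = 0.00294). Of 8 contractile genes Acta2, Actg2, Tagln, Myl9 and Tpm2 were higher and none lower. Acta2 was at 114 to 213 CPM against 376 and 924 CPM (2.06 ± 0.34, adjusted p = 0.00452), and the smooth muscle marker sum was 212 to 272 CPM against 473 and 963 CPM, its part in these values not tested.

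**Figure D5:**
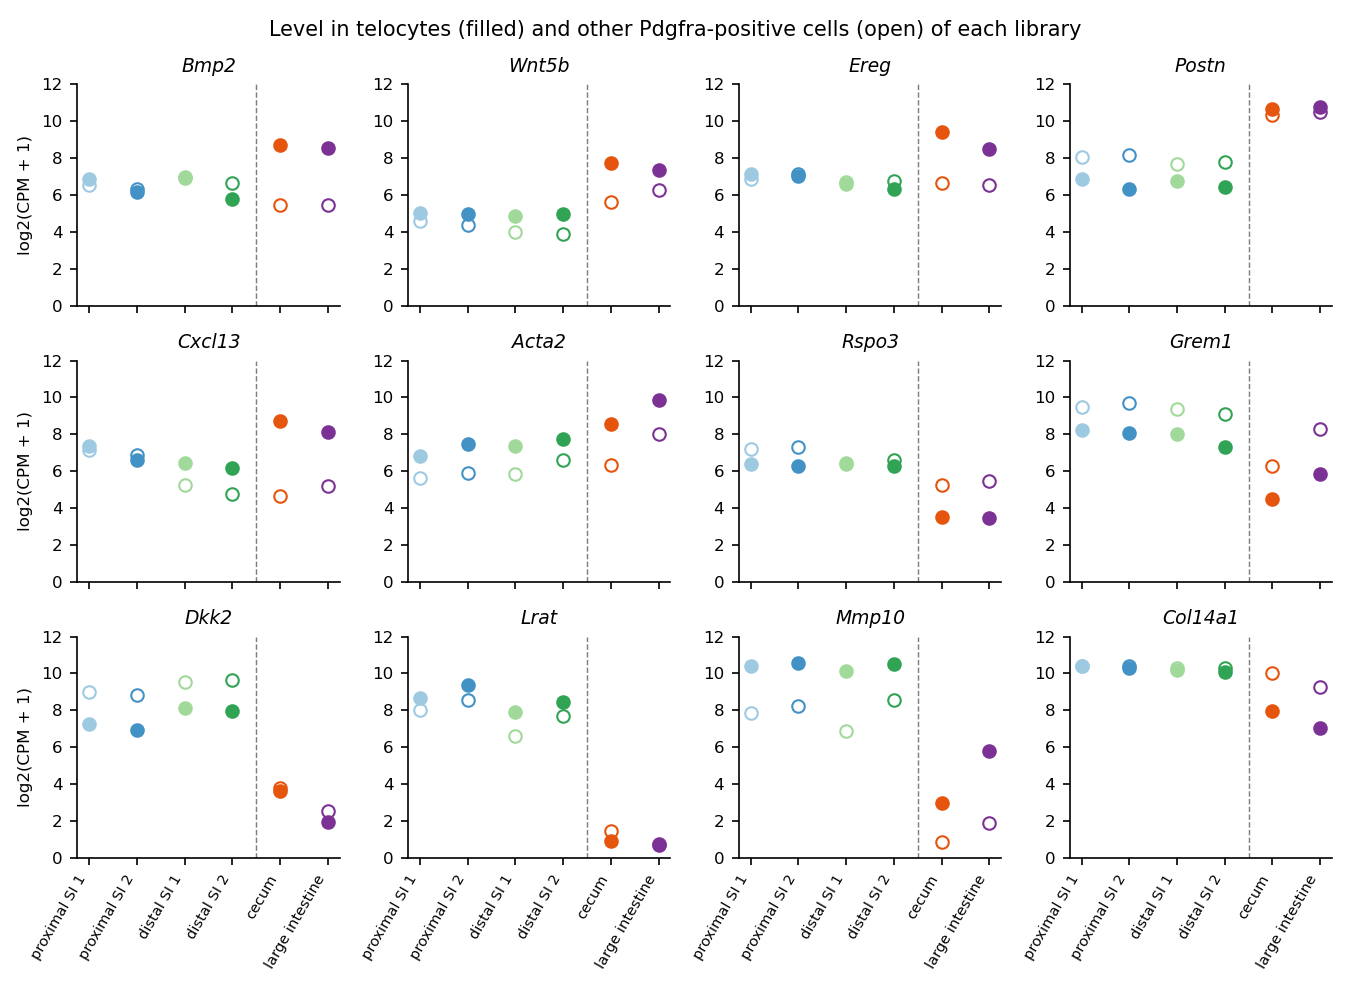
Levels as log2(CPM + 1) (y axis) of 12 genes in the telocytes (filled points) and other Pdgfra-positive cells (open points) of each library (x axis, SI is small intestine, a dashed line before the large bowel). Bmp2 and Ereg rise across the line in the filled points only (Bmp2 417 and 372 CPM in telocytes, 43.8 and 43.4 CPM in the other cells), while Postn (1314 and 1468 CPM in the other cells) does so in both.

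The genes with the largest fitted decrease in the large bowel were Defa24, Cntnap3, Lrat, Vwc2, Gm12153, Exoc3l2, Fabp2, Frmd5, Sertm1, Cyp1b1, Alk and Sntg1. Lrat, the enzyme that stores vitamin A as retinyl ester (chromosome 3 in build GRCm39), was at 412, 668, 237 and 350 CPM in the small intestine and at 0.859 and 0.658 CPM in the cecum and large intestine, 549-fold lower by the means (log2 change -9.03 ± 0.58, edgeR adjusted p = 0.000199). Vwc2, a secreted modulator of BMP signals, was at 58.7 to 75.6 CPM against 0.515 and 0.293 CPM (-7.41 ± 0.26, adjusted p = 2.83e-05). Cyp1b1, which oxidises retinoids and steroids, was at 31.9 to 65.8 CPM against 1.12 and 0.585 CPM. Cntnap3 was at 36.0 to 202 CPM against 2 UMIs in the large bowel, a ratio of 1909 (95% counting interval 528 to 15771). With limma-voom its call was lost (-10.17), as were those of Defa24 (-8.92) and Fabp2 (-5.74). Defa24, a Paneth cell defensin, and Fabp2, an enterocyte fatty acid binding protein, are epithelial genes, and Defa24 was no lower in the other Pdgfra-positive cells (14.6 to 70.9 CPM) as in telocytes (2.81 to 51.8 CPM) and at 0 in the large bowel. Beside the Hox genes and Pitx1, the largest increases were in Iqcj, Wfdc13, Nxf7 and Spp1. The call of Wfdc13 was lost with limma-voom (6.94). Iqcj was at 87.4 and 43.7 CPM against 1 UMI in the small intestine, a ratio of 1395 (95% counting interval 250 to 55131). Cpa6, a carboxypeptidase, was at 1.97 to 3.21 CPM against 59.6 and 125 CPM (5.29 ± 0.32, adjusted p = 0.000172).

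Of 20 alarmins, cytokines and chemokines, 7 were higher (Il7, Il18, Il11, Cxcl12, Cxcl13, Ccl7 and Ccl8) and 4 lower (Il33, Il34, Kitl and Ccl11), against 17.8% and 15.0% of all genes. Cxcl13 was at 162, 97.3, 86.8 and 70.8 CPM in the small intestine and at 422 and 274 CPM in the cecum and large intestine (log2 change 1.85 ± 0.31, edgeR adjusted p = 0.00494). Il33 was at 66.9 to 103 CPM against 50.1 and 21.1 CPM (-1.18 ± 0.34, adjusted p = 0.0315), a call lost without the large intestine, the proximal replicate 2 or either distal library and with at least 4 or 6 telocyte genes (-0.68 with 6) or the hashtag set as a covariate (-1.17). Ccl11 was at 439 to 886 CPM against 242 and 127 CPM, a call lost without the large intestine, in cells with at least 6 telocyte genes (-1.36) and with the hashtag set as a covariate (-1.23). Tslp itself was at 2.41 and 1.65 CPM against 0.510 to 2.63 CPM (adjusted p = 0.276), with a UMI in 1.84% of cecum and 1.52% of large intestine telocytes and in 0% and 0.833% of lymphatic cells. tdTomato UMIs numbered 81 in 61 cecum telocytes and 116 in 98 large intestine telocytes.

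Immediate early and heat shock genes, which respond to handling of tissue as well as to signals, were higher in the large bowel in 17 of 24 and lower in none, with a median log2 change of 1.33 against -0.00 over all genes tested. Of all genes 17.8% were higher and 15.0% lower. Fos was at 472 to 930 CPM against 2155 and 1119 CPM, a call lost without the cecum or the proximal replicate 2, in cells with at least 6 telocyte genes (log2 change 0.95) and with the hashtag set as a covariate (1.00), and Hspb1 at 34.5 to 87.7 CPM against 507 and 331 CPM. Their summed level was 5262 to 8266 CPM in small intestinal telocytes, 21979 CPM in those of the cecum and 10938 CPM in those of the large intestine, and in the other Pdgfra-positive cells it was 9247 to 13281 CPM in the small intestine, 34505 CPM in the cecum and 12812 CPM, within the small intestinal range, in the large intestine. Their part in the other differences between the bowels was not tested.

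A further comparison asked which differences between the bowels were larger or smaller in telocytes than in the other Pdgfra-positive cells of the same libraries, as the interaction of class and bowel in edgeR with the library as a block. It called 1063 of 18015 genes (5.90%), 515 higher (2.86%) and 548 lower (3.04%), with a median log2 interaction of 0.03 over all genes. Without the block, 65 genes were called, 38 higher and 27 lower, and with the hashtag set as a covariate 579. With at least 4 telocyte genes the interaction called 515 genes in all, 260 higher and 255 lower. The gate cut the classes and its makeup differed between the bowels, as described, and its part in the interactions was not tested. The largest positive interactions were in AU015791, Iqcj, Trank1, Dpp6, Rbm24 and Zfp941 and the largest negative ones in Prune2, Zg16, Tff3, Adamts18, Gm33524 and Gm48530, of which Trank1, Zfp941, Zg16, Tff3 and Gm33524 stayed under 2 CPM in the telocytes of all 6 libraries. Zg16 and Tff3 are goblet cell genes, at 52.7 and 15.7 CPM in the other Pdgfra-positive cells of the large intestine against 1.28 and 0.951 CPM in its telocytes. Without the large intestine both lost their call, at -4.81 and -6.60. The Zg16 interaction turned to 0.44 without marked doublets, and that of Tff3 lost its call.

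Among signalling genes, Bmp2 had an interaction of 3.39 ± 0.25 (SE, log2, edgeR adjusted p = 0.000302). Bmp2 was higher in the large bowel in telocytes (log2 change 0.48 and not called in cells with at least 6 telocyte genes). In the other Pdgfra-positive cells it went from 81.2 to 123 CPM in the small intestine to 43.8 and 43.4 CPM. Ereg (2.53 ± 0.22, adjusted p = 0.000522) was flat in the other cells, at 104 to 139 CPM in the small intestine and 101 and 94.6 CPM in the large bowel. Cxcl13 had an interaction of 3.01 ± 0.47 (adjusted p = 0.00697), Cpa6 of 4.65 ± 0.37 (adjusted p = 0.000318) and Pitx1 of 2.80 ± 0.18 (adjusted p = 0.000175). Tgfbi, a matrix protein induced by TGF-beta, was at 160 to 268 CPM in small intestinal and 248 and 299 CPM in large bowel telocytes, and at 109 to 230 CPM and 29.3 and 73.5 CPM in the other cells (2.28 ± 0.32, adjusted p = 0.00417). The vasoactive list had 4 positive interactions of 11 (Edn3, Ednra, Ptgs1 and Ptgs2) and none negative, against 2.86% and 3.04% of all genes. With at least 4 telocyte genes Ednra (0.84) and Ptgs2 (0.51) lost this call. Without the library block, 25 of 34 genes followed across alternatives lost their interaction call, those of Bmp2, Ereg, Cpa6 and Postn not among them.

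Negative interactions took different forms. Col14a1 was near level in both classes of the small intestine (1069 to 1339 and 1272 to 1354 CPM) and at 247 and 131 CPM in large bowel telocytes against 1040 and 604 CPM in the other cells (interaction -1.95 ± 0.09, edgeR adjusted p = 2.38e-05). Of 31 Hox genes 6 had negative interactions and none a positive one, all 6 in the HoxB group (Hoxb2 to Hoxb7). Of all genes 3.04% had a negative and 2.86% a positive interaction. Hoxb3 was at 4.68 and 22.9 CPM in the other Pdgfra-positive cells of the cecum and large intestine, against 1.12 and 3.95 CPM in telocytes (-2.75 ± 0.13, adjusted p = 3.03e-05). Ebf1 went from 322 to 576 CPM in the other cells of the small intestine to 1239 and 1092 CPM in those of the large bowel, and in telocytes from 182 to 298 CPM to 196 and 198 CPM (-1.62 ± 0.15, adjusted p = 0.000621). Foxf1 (0.86 ± 0.09, adjusted p = 0.00101) and Tbx3 (1.87 ± 0.32, adjusted p = 0.00989) had positive interactions, Tbx3 with no call between the bowels in telocytes alone (0.05 ± 0.20, adjusted p = 0.874).

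The cecum and the large intestine gave 1 library each, not split by hashtag here, so their difference was given no replicate check and no test. By a ratio past 2-fold with 5 CPM added and exact 95% Poisson intervals that do not overlap, 118 of 14789 genes (0.798%) were higher in the large intestine and 194 (1.31%) higher in the cecum, 312 in all (2.11%), and the median log2 ratio over all genes was 0.02. The intervals cover counting error only. Hoxa13, the most posterior gene of its cluster, had 1103 UMIs in large intestine telocytes (40.3 CPM, interval 38.0 to 42.8) and none in cecum telocytes, where 0 allows up to 0.258 CPM. Of 25 Hox genes 1 was higher in the large intestine and 12 in the cecum, among them Hoxc10 (43.9 against 7.35 CPM), Hoxd9 (59.3 against 12.3 CPM) and Hoxd10 (32.5 against 11.5 CPM).

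Higher in the large intestine were also Htr1f, a serotonin receptor, Bmp3, Lef1, Isl1, Wif1, Mmp10 and Kcnq5. Bmp3 was at 88.0 CPM (84.6 to 91.6) against 10.8 CPM (9.02 to 12.9), Lef1 at 69.4 CPM (66.3 to 72.6) against 8.07 CPM (6.52 to 9.88) and Wif1 at 27.0 CPM (25.1 to 29.0) against 1.12 CPM (0.595 to 1.91). Bmp3 and Wif1 are leading genes of sub-cluster 5, of which 501 of 507 cells came from the large intestine. Acta2 and Tagln were higher too, Acta2 at 924 against 376 CPM. Higher in the cecum were Lrp1b, Npnt, Wfdc13, Fst, Col6a5 and Cntn6. Fst was at 317 CPM (307 to 327) against 50.2 CPM (47.6 to 52.9), and Npnt at 113 CPM (107 to 120) against 12 CPM (10.7 to 13.4). Lrp1b was at 76.9 CPM against 1.54 CPM, 12.5-fold with 5 CPM added. The cecum was higher for 13 of the 24 immediate early and heat shock genes, against 1.31% of all genes, and their part in these differences was not tested. The blood endothelial marker sum was 168 against 42.9 CPM, of which Cd36, a fatty acid transporter that other cells also express, made up 129 and 29.8 CPM.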

How the data were processed

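The authors sorted live tdTomato+ lamina propria cells, labelled them with hashtag antibodies, made droplet-based 3′ libraries and aligned them with Cell Ranger (version 8.1.0 in the submitters' notes) to mm39 with the reporter added. They deposited raw UMI counts per gene and barcode, unfiltered, so no cell, doublet or ambient RNA had been removed. Barcodes were kept with 2500 to 40000 UMIs, 1000 to 7500 genes and a mitochondrial share below 10%. Doublets were marked with Scrublet in scanpy 1.11.5 and kept in the main analysis. Counts of gated cells were summed per library and tested with edgeR's quasi-likelihood test (TMM, minimum count 10, Benjamini-Hochberg at 0.05), checked on simulated data, where the share of false calls was above the nominal 5% in both tests and many 2-fold changes were missed, so adjusted p near the threshold are weak evidence. The SE printed with edgeR values was derived from the test, as the absolute log2 change divided by the square root of its F statistic. limma-voom and DESeq2 were alternatives. Cecum telocytes held 11642092 UMIs, large intestine telocytes 27341098, and those of a small intestinal library 2489027 to 9800198. Floors were 3 counts. Sub-clusters came from 2000 variable genes, 30 components and Leiden resolution 0.5. Genes were named from fixed lists and as the largest changes past the threshold: up to 12 a direction between bowels, in libraries that do not overlap and with at least 20 CPM in the higher bowel, 6 for the interaction, 20 above and 10 below the other Pdgfra-positive cells in at least 10% of telocytes for the 20, and 8 a direction between cecum and large intestine. The members, lists and rules were chosen with earlier results of these data known. Results for a few genes that these rules select are not reported here.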

Additional observations from a re-analysis of the deposited data

Results flagged for a closer look

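The difference between the bowels was itself different in telocytes and in the other Pdgfra-positive cells (edgeR interaction, log2, adjusted p under 0.05) for these genes. The makeup of the gate differed between the bowels, and its part in these values was not tested. Telocytes moved upward relative to the other cells for AU015791 (9.92), Iqcj (7.16), Trank1 (6.19), Dpp6 (4.95), Rbm24 (4.88), Zfp941 (4.71), Cpa6 (4.65), Bmp2 (3.39), Cxcl13 (3.01), Pitx1 (2.80), Ereg (2.53), Tgfbi (2.28), Edn3 (2.18), Tbx3 (1.87), Postn (1.69), Ednra (0.96), Ptgs2 (0.91) and Foxf1 (0.86). They moved downward for Prune2 (-6.84), Zg16 (-6.01), Tff3 (-5.91), Adamts18 (-5.65), Gm33524 (-5.58), Gm48530 (-4.58), Hoxb7 (-2.83), Hoxb3 (-2.75), Hoxb4 (-2.42), Gdf10 (-2.38), Hoxb2 (-2.33), Ccl11 (-2.23), Col14a1 (-1.95), Ebf1 (-1.62), Slit2 (-1.44) and Meis1 (-1.08). AU015791 had no UMI in small intestinal telocytes, so its value is no bound. Its level in large bowel telocytes was at least 78.7-fold higher, at 16.7 CPM in the cecum and 6.55 CPM in the large intestine. The calls of Zfp941 were lost without any of 5 libraries in turn, those of AU015791 without either proximal library or the distal replicate 2, and those of Zg16, Tff3 and Hoxb7 without the large intestine. Those of Gm33524 were lost without the distal replicate 2, the cecum or the large intestine and those of Gm48530 without the distal replicate 2 or the large intestine. With the hashtag set as a covariate AU015791 (10.24), Iqcj (5.71), Zfp941 (3.69) and Gm33524 (-5.22) lost the call, and Iqcj also lost it within 1 hashtag set (5.71) and after thinning (5.66). Within 1 hashtag set those of AU015791, Trank1, Rbm24, Gm48530, Gdf10 and Tbx3 were lost as well.

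Of 81 values taken over the 4 small intestinal libraries, those of 80 genes and the telocyte share, 6 had 1 library apart from the other 3. The 81 include genes with fewer than 10 UMIs in these libraries, which could not be flagged, so fewer values were open to a flag. Chance gives such a gap in about 1 in 20 groups, so a count of this size is near what chance alone would give. Hoxc10 was at 1.51 CPM in the distal replicate 2 and 0 in the others, and Alk at 81.4 CPM in the proximal replicate 1 against 10.0 to 20.4 CPM. Bmp4 was at 322 CPM in the proximal replicate 1 against 376 to 387 CPM, and Timp1 at 18.5 CPM in the distal replicate 1 against 9.08 to 10.5 CPM. Il34 was at 173 CPM in the proximal replicate 2 against 323 to 341 CPM, and Ccl11 at 886 CPM in the same library against 439 to 480 CPM.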

How the results depend on the processing

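The share of telocytes stayed higher in the large bowel under every alternative run, with differences of 12.7 points without the large intestine to 39.9 points without the cecum and exact permutation p of 0.133 to 0.400. The libraries of the bowels did not overlap in any of them, so each p was the smallest that its number of libraries can give. A larger p here reflects fewer libraries only. Of 80 genes followed between the bowels, 2 of 1501 values turned direction, Bmp5 to -0.51 with at least 6 telocyte genes and Gdf10 to 0.20 with a Foxl1 UMI required. Of 34 genes followed for the interaction, 1 of 602 turned, Zg16 to 0.44 without marked doublets. The interaction was not run with at least 6 telocyte genes or with a Foxl1 UMI required, the 2 settings in which a gene turned between the bowels. The counts of turned values are therefore not alike.

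The 4819 genes called between the bowels became 2754 with the hashtag set as a covariate, 1745 within 1 hashtag set, 3103 with a Foxl1 UMI required, 3124 after thinning and 859 with at least 6 telocyte genes, an alternative chosen after seeing the data in which fewer genes and fewer cells entered. Leaving out 1 library gave 2765 to 5552 calls, with 3207 and 3142 without the proximal replicates 1 and 2, 2765 without the cecum and 2866 without the large intestine. The 1063 interactions became 1634 with no filter on low counts, 1660 with 4 groups, 579 with the hashtag covariate, 324 within 1 hashtag set, 65 without the library block, 515 with at least 4 telocyte genes and 681 after thinning, and 627 to 1344 leaving out 1 library (627, 675 and 669 without the proximal replicates 1 and 2 and the distal replicate 2). The causes of these shifts were not tested. With 1 CPM added in place of 5, 719 genes differed between large intestine and cecum past 2-fold against 312, and resolution 1.0 gave 15 sub-clusters against 9.

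Calls between the bowels lost without the large intestine were those of Defa24, Fabp2, Alk, Ednra, Col4a6, Foxf1, Ccl11 and Il33 (log2 changes -10.28, -7.26, -5.36, 0.56, 2.04, 0.51, -1.11 and -0.66). Without the cecum those of Fabp2, Gdf10, Il34, Jun and Fos were lost (-6.58, -0.76, -1.09, 1.35 and 0.82). With limma-voom those of Wfdc13, Hoxc10, Defa24, Cntnap3, Fabp2, Bmp3 and Lef1 were lost (6.94, 6.56, -8.92, -10.17, -5.74, 3.89 and 5.00). No paired analysis was possible because the labels give the cecum and the large intestine no replicate number. The hashtag set, which they shared with the small intestinal replicates 1, was used as the covariate above. A shared set does not show that animals or days were shared. Depth limits genes near the floor of 3 counts, 0.258 CPM in the cecum and 0.110 CPM in the large intestine.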

Other observations

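Of 8 hormone and neuropeptide receptors 2 were lower in the large bowel and none higher, and of 24 axon guidance and neurotrophic genes 5 were higher and 9 lower, against 17.8% and 15.0% of all genes. Tacr1, the receptor of substance P, was at 153, 75.9, 83.6 and 138 CPM in small intestinal telocytes and at 15.8 CPM in the cecum and 11.6 CPM in the large intestine (log2 change -2.94 ± 0.35, edgeR adjusted p = 0.00159). Slit2, a repellent of growing axons, was at 96.8 to 198 CPM against 5.58 and 16.1 CPM (-3.66 ± 0.49, adjusted p = 0.00227), and Unc5c, a netrin receptor, at 254 to 590 CPM against 2.32 and 26.4 CPM (-4.54 ± 0.86, adjusted p = 0.00748, and -2.29 without a call in cells with at least 6 telocyte genes). Gdnf, a neurotrophic factor of the enteric nervous system, was at 30.8 CPM in cecum and 22.8 CPM in large intestine telocytes against 3.45 and 2.32 CPM in the other Pdgfra-positive cells.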
